A study of Mus musculus with 4 samples.

Results

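The genes described here are 10 genes of the smooth muscle and myofibroblast contractile programme: Acta2, Actg2, Tagln, Cnn1, Smtn, Lmod1, Myl9, Myh11, Des and Myocd. They were chosen by name, though with earlier results of these data known, out of 22835 genes that had at least 1 listed exon. Every listed exon of each gene was used. The deposited values covered 142 of the 232 exons that the GENCODE M21 annotation gives to these genes. The values came from poly(A) RNA-seq of mouse embryonic fibroblasts (MEFs). The study asked whether the melanocyte form of Mitf, the transcription factor that directs the melanocyte lineage, redirects such cells, and the comparisons below ask how the contractile genes differ with and without it.

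The Dox (-) and Dox (+) libraries came from Mitf knock-in MEFs at passage 5, which carry the transactivator ROSA26-M2rtTA, the Dox-inducible Col1a1-TetO-Mitf allele, a constitutive mCherry transgene and puromycin resistance cassettes. Dox (+) cells received doxycycline (Dox) for 6 days and Dox (-) cells did not. The knock-in line was 1 correctly targeted clone of KH2 embryonic stem cells, and the MEFs were taken from E13.5 chimeric embryos made in BDF2 host blastocysts. The study names mCherry and puromycin resistance as its means of purifying knock-in cells from chimeras, and whether any host cells remained in these cultures was not measured here. The third library, labelled MEF, came from wild-type MEFs at passage 3 that carry none of these alleles and received no Dox, as labelled. The study's own gene table gives an exon value of the deposited Dox (-) and Dox (+) columns for nearly every gene checked, but one of the deposited MEF column for few. The origin of the MEF library is thus less certain than its label, and every MEF value and fold below rests on the deposited column of that name. All 3 cultures were grown in DMEM with 10% serum. Each condition was 1 library, so no difference below has a replicate check, no p-value was computed, and the intervals cover counting error only.

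In smooth muscle, actin filaments built from the Acta2 and Actg2 proteins slide along myosin filaments of Myh11, and phosphorylation of the regulatory light chain Myl9 starts the contraction. Tagln, Cnn1, Smtn and Lmod1 bind or assemble actin filaments, and desmin (Des) forms the intermediate filaments that tie the contractile units together. Serum response factor (Srf) with its coactivator myocardin (Myocd), or with the myocardin-related factors Mrtfa and Mrtfb, binds CArG boxes in many of these genes. Cultured fibroblasts in serum commonly take on part of this programme as myofibroblasts, with Acta2 as the usual marker.

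The actin genes are closely related, so the opening 90 bases of the coding sequence of Acta2 and the matching bases of 3 relatives (GENCODE M21, GRCm38) are shown to make clear what separates their reads. Capitals mark bases that differ from Acta2 in an alignment.
Acta2: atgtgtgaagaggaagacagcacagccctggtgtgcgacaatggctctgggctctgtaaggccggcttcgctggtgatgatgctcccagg
Actg2: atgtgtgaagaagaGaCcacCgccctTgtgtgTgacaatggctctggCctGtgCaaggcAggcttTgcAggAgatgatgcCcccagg
Acta1: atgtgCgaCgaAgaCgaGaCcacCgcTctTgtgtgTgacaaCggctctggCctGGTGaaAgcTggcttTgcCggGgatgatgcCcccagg
Actc1: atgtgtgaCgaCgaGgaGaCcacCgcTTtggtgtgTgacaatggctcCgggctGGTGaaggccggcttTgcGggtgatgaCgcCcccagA
In these stretches Actg2 differed from Acta2 at 13 aligned bases and lacked 3, Acta1 differed at 22 and Actc1 at 19. Over the whole coding sequence, Acta2 was identical to Actg2 at 84.2% of aligned bases and to Acta1 at 85.4%. Of the 1986 windows of 50 bases in the Acta2 transcript, 7 (0.352%) occurred in the transcript of another gene, and none of the 1284 windows of Actg2 did. A read of that length could therefore be assigned to either actin almost everywhere, although how reads with several matches were handled is not given in the sources used here.

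A gene's level is given as the RPKM of its highest exon, as in the study's methods, where RPKM is reads per kilobase of exon, scaled by the aligned reads of the library. About 97% of low values were whole multiples of 1 read, which gave 45000000 reads for MEF, 45000000 for Dox (-) and 44000000 for Dox (+), and from these the reads on each exon. At that depth 3 reads on an exon of 150 bases correspond to 0.444 to 0.455 RPKM. Mitf followed the labels, at 1.52 RPKM in MEF, 30.8 RPKM in Dox (-) and 1544 RPKM in Dox (+). Macrophage markers were high in Dox (-): the 12 of them summed to 17883 RPKM there, to 637 RPKM in Dox (+) and to 63.1 RPKM in MEF, with none at 0 in any library. The library labelled MEF was low in several fibroblast genes, with the receptor Pdgfra at 18.9 RPKM and the collagen-binding Dcn at 30.02 RPKM against 86.6 and 1637 RPKM in Dox (-), although Vim, the fibroblast intermediate filament, was at 24417 RPKM.

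The contractile genes were not higher or lower as one block in Dox (+). Des, Acta2, Tagln, Myl9, Actg2 and Cnn1 were higher in Dox (+) than in Dox (-), by 3.16-fold for Des down to 1.29-fold for Cnn1. Lmod1 was 1.97-fold and Smtn, over its merged exons, 1.90-fold lower, Myh11 differed little, and Myocd was near the limit of detection. The median log2 fold change of the 10 genes was 0.48, on the log2(RPKM + 1) scale that all log2 fold changes here use. It was 0.23 for the 13307 genes above 10 RPKM in at least 1 of these libraries. Of those 13307 genes, 62.6% were higher in Dox (+), so 6 of 10 higher is near the share of all genes. Because the typical gene sat 0.23 higher in Dox (+), values below are also given relative to that shift, and 6 genes lay above it and 4 below. In a bulk library, fewer cells of a type and less RNA per cell cannot be told apart, so a lower level may be either.

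**Figure D1:**
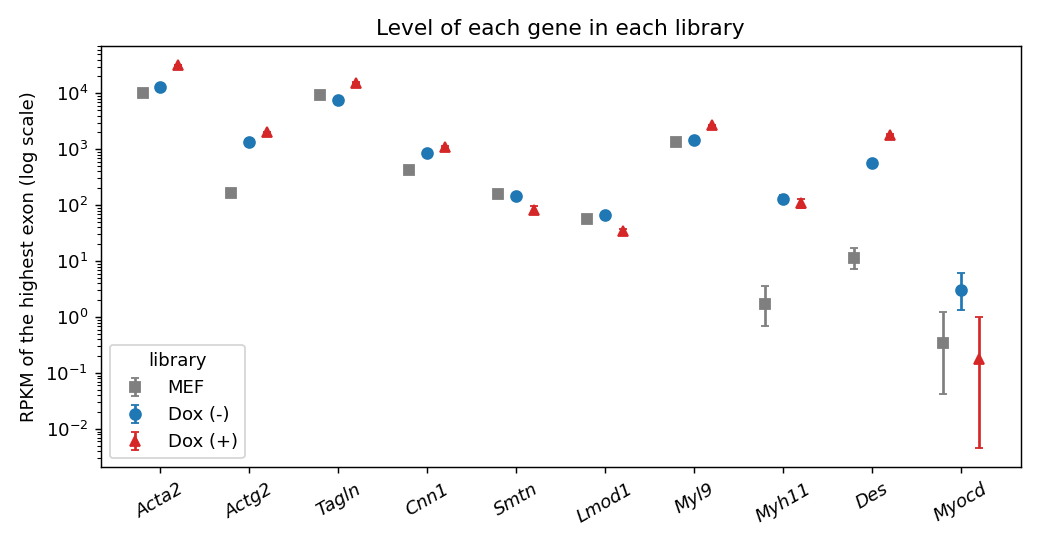
Level of each gene in each library, as the RPKM of its highest exon on a log axis. Squares are MEF, circles Dox (-) and triangles Dox (+), with exact 95% Poisson intervals of the reads (counting error only). Acta2 and Tagln are the highest in every library, while Des, Myh11 and Actg2 show the wide gap between MEF and the knock-in libraries.

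Acta2 (chr19:34241090-34255590, minus strand, mm10) encodes smooth muscle alpha actin, the standard myofibroblast marker. It had 10218 RPKM in MEF, 12721 RPKM in Dox (-) and 31696 RPKM in Dox (+), all on an exon of 85 bases. It was already the gene of rank 30 in MEF and rank 20 in Dox (-), and rank 8 of all genes in Dox (+). On that exon Dox (+) was 2.49-fold above Dox (-) (95% counting interval 2.47 to 2.52), and all 9 listed exons were higher, by 2.11 to 2.85-fold. Relative to the shift of all genes its log2 fold change was 1.09. Dox (-) and MEF lay closer, with Acta2 1.24-fold higher in Dox (-) (interval 1.23 to 1.26).

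Actg2 (chr6:83512905-83536265, minus strand) encodes smooth muscle gamma actin, the actin of gut muscle. It had 167 RPKM in MEF, 1329 RPKM in Dox (-) and 2018 RPKM in Dox (+). The step between MEF and Dox (-) was the larger one, 7.96-fold (interval 7.33 to 8.65), with all 15 listed exons higher in Dox (-). Dox (+) was a further 1.52-fold higher (interval 1.47 to 1.57), again on all 15 exons, and 0.37 above the shift on the log2 scale.

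Among the 6 actin genes, compared on 1 scale as reads over merged exons per kilobase, Acta2 made up 50.3% of the summed actin level in MEF, 54.4% in Dox (-) and 70.6% in Dox (+). The share of Actg2 was 1.03% in MEF, 7.13% in Dox (-) and 5.54% in Dox (+). The cytoplasmic actins of all cells, Actb and Actg1, had shares of 15.3% and 22.8% in Dox (-) but 8.25% and 14.5% in Dox (+). Their levels were not lower, with Actb at 1778 and 1823 RPKM and Actg1 at 2646 and 3206 RPKM in Dox (-) and Dox (+). Acta2 was at 6316 and 15602 RPKM on that scale, so the smaller shares of Actb and Actg1 went with the higher Acta2. Actb and Actg1 have many processed copies in the genome, which makes their reads less certain. Acta1, the skeletal muscle actin, was also higher in Dox (+) on its highest exon, with 20.5 RPKM in MEF, 80.7 RPKM in Dox (-) and 372 RPKM in Dox (+), while the cardiac actin Actc1 was at most 1.40 RPKM, in Dox (+).

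Tagln (chr9:45929619-45936058, minus strand) encodes transgelin, an actin-crosslinking protein of smooth muscle. It had 9298 RPKM in MEF, 7509.8 RPKM in Dox (-) and 15514 RPKM in Dox (+). Dox (+) exceeded Dox (-) by 2.07-fold (interval 2.04 to 2.09), with all 5 listed exons between 2.07 and 2.31-fold. Unlike Acta2 and Myl9 it was lower in Dox (-) than in MEF, by 1.24-fold (interval 1.22 to 1.26) on its highest exon, and by 1.005 to 1.24-fold over its 5 exons. Of these exons, 4 overlap the antisense gene Gm48529, and the last shares 108 bases with Pcsk7 on the other strand. Whether the counting used strand is not given in the sources used here, so reads of the overlapping genes cannot be told apart.

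Cnn1 (chr9:22099216-22109630, plus strand) encodes calponin, which binds actin and damps the myosin ATPase. It had 425 RPKM in MEF, 849.85 RPKM in Dox (-) and 1095 RPKM in Dox (+). Its difference between the knock-in libraries was the smallest of the 6 genes that were higher in Dox (+), 1.29-fold (interval 1.24 to 1.34), which is 0.13 above the shift. All 7 exons were higher in Dox (+), by 1.26 to 1.54-fold. Between MEF and Dox (-), compared on the same exon, it was 2.12-fold higher in Dox (-) (interval 2.01 to 2.23).

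Smtn (chr11:3517523-3540612, minus strand) encodes smoothelin, a cytoskeletal protein of contractile smooth muscle. It had 160 RPKM in MEF, 147 RPKM in Dox (-) and 82.1 RPKM in Dox (+). Of its 33 listed exons, 32 had more than 3 reads in both knock-in libraries, and all 32 were lower in Dox (+), by 1.34 to 2.81-fold. On the exon that was highest in Dox (-) it was 2.42-fold lower (interval 2.03 to 2.88). Summed over merged exons, 9794 reads in Dox (-) stood against 5028 in Dox (+), which is 1.90-fold lower (interval 1.84 to 1.97). MEF and Dox (-) were nearly level, with 23 exons higher in Dox (-), 8 lower and a merged ratio of 1.04 (interval 1.01 to 1.07). The 6 exons that overlap Gm11946 on the other strand were 1.34 to 1.86-fold lower in Dox (+) and the other 26 were 1.47 to 2.81-fold lower, so both sets had the same direction.

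Lmod1 (chr1:135324807-135368065, plus strand) encodes leiomodin, which nucleates actin filaments in smooth muscle. It had 56.7 RPKM in MEF, 67.4 RPKM in Dox (-) and 34.6 RPKM in Dox (+). Dox (+) was 1.97-fold below Dox (-) (interval 1.88 to 2.08), and all 3 of its exons were lower, by 1.71 to 2.30-fold. Dox (+) was also 1.66-fold below MEF (interval 1.58 to 1.75). Smtn and Lmod1 were thus lower in Dox (+) than in either other library while their fellow actin-binding genes Tagln and Cnn1 were higher.

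Myl9 (chr2:156775420-156781658, plus strand) encodes the smooth muscle regulatory light chain of myosin. It had 1322 RPKM in MEF, 1439 RPKM in Dox (-) and 2699 RPKM in Dox (+). Dox (+) was 1.88-fold above Dox (-) (interval 1.84 to 1.92), with all 4 exons higher, and Myl9 was 1.09-fold higher in Dox (-) than in MEF (interval 1.06 to 1.11). Its profile over the 3 libraries was the nearest to that of Acta2 among the 10 genes. Myl9 was also the only one of the 6 genes with a RefSeq promoter (GRCm38.p6) whose 300-base window held a CArG box, searched on both strands as CC, then 6 bases of A or T, then GG. Promoters of Acta2, Cnn1, Des, Lmod1 and Smtn held no match to this strict pattern from 250 bases before to 50 after the start. A match was in 1.63% of all 32851 promoters. Boxes with a G or C among the 6 middle bases were not searched for, so these promoters may hold such boxes. The stretch that holds the Myl9 box lies 206 to 107 bases before the start, at chr2:156775258-156775357 on the plus strand. Capitals mark the box.
Myl9 promoter: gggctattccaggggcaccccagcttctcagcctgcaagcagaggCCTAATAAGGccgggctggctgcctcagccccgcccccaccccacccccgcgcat
The E-box CACGTG, a motif bound by MITF, was in none of these 6 promoters and in 7.15% of all promoters. The E-box CATGTG or its reverse CACATG was in none of the 6 and in 14.2% of all. These letters describe the windows only.

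Myh11 (chr16:14194535-14291372, minus strand) encodes the smooth muscle myosin heavy chain, the most specific marker of mature smooth muscle. Its highest exon had 1.75 RPKM in MEF, 129 RPKM in Dox (-) and 108 RPKM in Dox (+). Over merged exons this was 215 reads in MEF, 14753 in Dox (-) and 13482 in Dox (+). Dox (-) was thus 68.6-fold above MEF (interval 60.0 to 78.9). The knock-in libraries differed little, with 16 exons higher in Dox (+), 26 lower and a merged ratio of 0.935 (interval 0.913 to 0.957). The ratio was 0.768 on the last exon, 0.726 on the exon before it and 1.003 on the first listed exon. Acta2 and Des also had lower ratios on the last exon (2.11 and 2.84) than on the first (2.85 and 3.57). Cnn1 (1.52 and 1.33) and Tagln (2.15 and 2.13) did not. Whether coverage toward the 3′ end differed between these libraries was not tested. On the highest exon of Myh11 the log2 fold change relative to the shift was -0.48. Its light chain Myl9, by contrast, was 1.88-fold higher.

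Myh11 is spliced at its 3′ end into a form with and a form without a 39-base exon, known as SM2 and SM1. That exon is shown, but its count may not separate the forms, because reads spliced across an exon may be counted on it. Actg2 exons of 150 and 33 bases, which do not overlap, had identical counts of 170, 1447 and 2339 in MEF, Dox (-) and Dox (+). Whether the count of the Myh11 exon holds such reads was not tested. Capitals mark the stop codon that the exon brings into frame.
Myh11 39-base exon, chr16:14198050-14198088, minus strand: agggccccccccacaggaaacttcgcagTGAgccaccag
It had 0 reads in MEF, 162 reads in Dox (-) and 115 reads in Dox (+), or 92.3 RPKM and 67.0 RPKM in the knock-in libraries. This was 1.10% of the counts summed over the merged exons of Myh11 in Dox (-) (exact binomial interval 0.936 to 1.28%). In Dox (+) it was 0.853% (0.705 to 1.02%). A read that touches several exons is counted on each, so these shares do not measure the abundance of a form. In MEF it was 0 of a summed count of 215, with an exact binomial interval that reaches 1.70%. The limit of 3 reads would be a share of 1.40%, so the exon cannot be compared there at this depth. The shares of the knock-in libraries were not compared directly.

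Des (chr1:75360329-75368579, plus strand) encodes desmin, the muscle intermediate filament. It had 11.6 RPKM in MEF, 571 RPKM in Dox (-) and 1805 RPKM in Dox (+), all on an exon of 44 bases. Dox (-) was 49.2-fold above MEF on that exon, from 23 and 1131 reads (interval 32.6 to 77.9), and 67.9-fold over merged exons. Dox (+) was a further 3.16-fold above Dox (-) (interval 2.95 to 3.38), with all 9 exons between 2.84 and 3.57-fold and 1.43 above the shift. The last exon shares 220 bases with the antisense gene Gm15179, and the other 8 exons gave the same direction.

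Myocd (chr11:65176561-65269989, minus strand) encodes myocardin, the smooth muscle coactivator of Srf. Its highest exon had 0.345 RPKM in MEF, 3.07 RPKM in Dox (-) and 0.180 RPKM in Dox (+), from 2, 8 and 1 reads on different exons, and it was the 1 gene of the 10 that never reached 10 RPKM. Over all exons there were 6 reads in MEF, 112 in Dox (-) and 13 in Dox (+), with 11 of 15 exons at 0 in MEF, none in Dox (-) and 9 in Dox (+). On the merged reads Dox (+) was 8.42-fold lower than Dox (-) (interval 4.73 to 16.3), which rests on few reads. That interval treats the summed counts as separate reads, though a read that touches several exons is counted on each. Of the other contractile genes, Acta2, Tagln, Cnn1, Actg2, Des and Myl9 had higher RPKM in Dox (+) than in Dox (-). Lmod1 and Smtn were lower, and Myh11 differed little, with a merged ratio of 0.935.

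**Figure D2:**
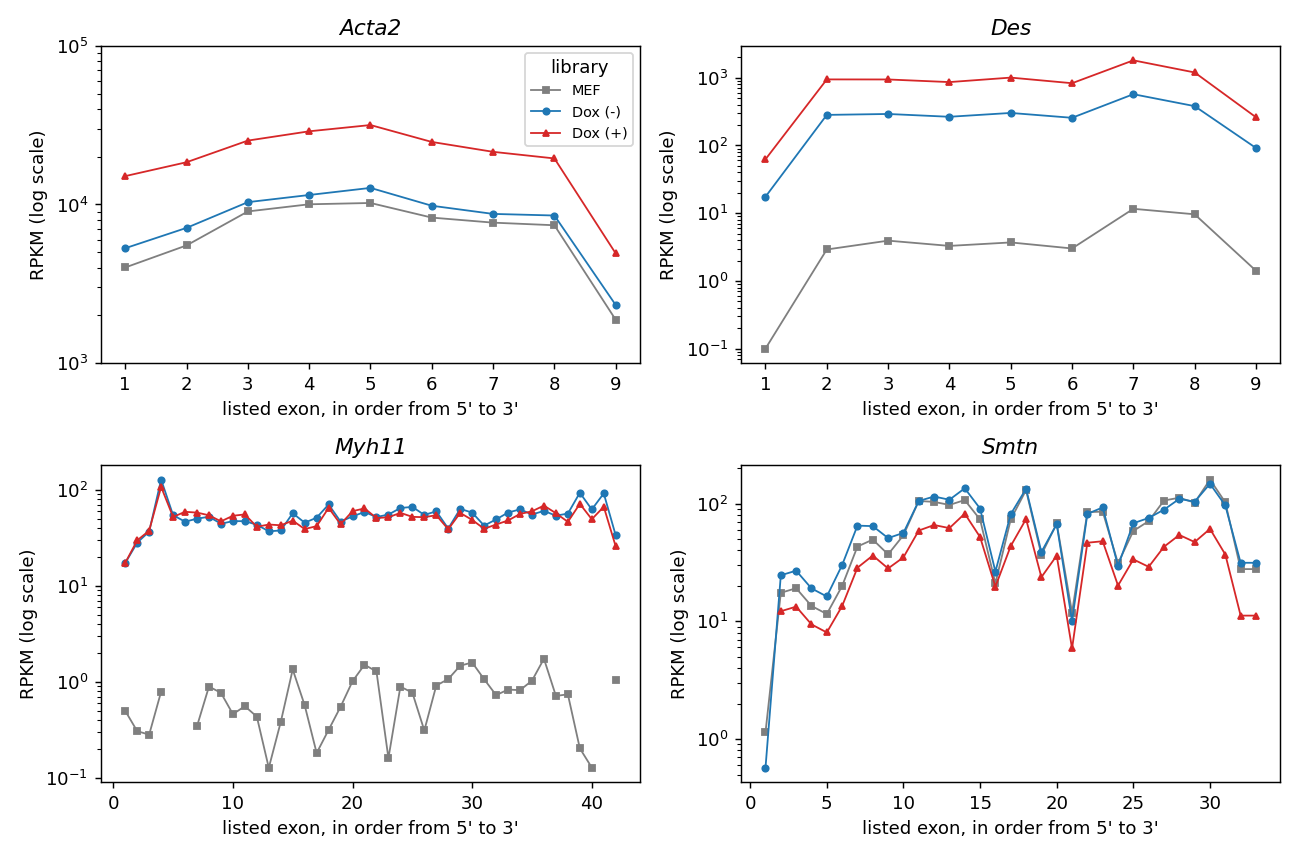
RPKM of each listed exon of Acta2, Des, Myh11 and Smtn, in order along the gene, on log axes, with exons at 0 not drawn. For Acta2 and Des the Dox (+) line lies above Dox (-) at every exon, for Myh11 both knock-in lines run together far above MEF, and for Smtn the Dox (+) line is the lowest along nearly the whole gene.

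The order of the genes by level, compared as reads over merged exons per kilobase, was the same at the top in every library. Acta2 was first with 5258, 6316 and 15602 RPKM in MEF, Dox (-) and Dox (+), then Tagln with 3394, 3077 and 6700 RPKM, then Myl9 with 872, 1040 and 1915 RPKM, on that scale. Actg2 came next in each library, but in MEF its 107 RPKM was close to the 102 RPKM of Cnn1. Des was at 1.92 RPKM in MEF, below all but Myh11 and Myocd. It was at 131 RPKM in Dox (-), below Cnn1 at 233 RPKM, and at 405 RPKM in Dox (+), above Cnn1 at 319 RPKM. Smtn, Myh11 and Lmod1 lay close together in Dox (-), at 53.4, 49.8 and 44.98 RPKM, and without replicates it is not known whether neighbours this close differ beyond the spread between cultures.

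A gene was called where the plain ratio of its RPKM, with nothing added, passed a fold of 4 with at least 1 of the compared libraries above 10 RPKM, and 9 of the 10 genes could be compared, all but Myocd. Between Dox (-) and Dox (+) none of the 9 was called higher or lower, while 1.64% of all genes were called higher and 5.41% lower. By a threshold of 2, 3 of the 9 (Acta2, Tagln and Des) were higher, against 10.8% of all genes, and none was lower, against 11.1%. These calls used the highest exon of each library, which was not the same exon for Lmod1 and Smtn. On that measure both fell short of 2-fold lower, with log2 fold changes of -0.94 and -0.83. On the same exon Lmod1 was 1.97-fold lower and Smtn 2.42-fold, which passes 2-fold. Over merged exons Smtn was 1.90-fold lower. Over single exons with more than 3 reads in both libraries, 65 were higher in Dox (+) and 64 lower, and of the lower ones 32 were of Smtn and 26 of Myh11, the genes with the most exons.

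**Figure D3:**
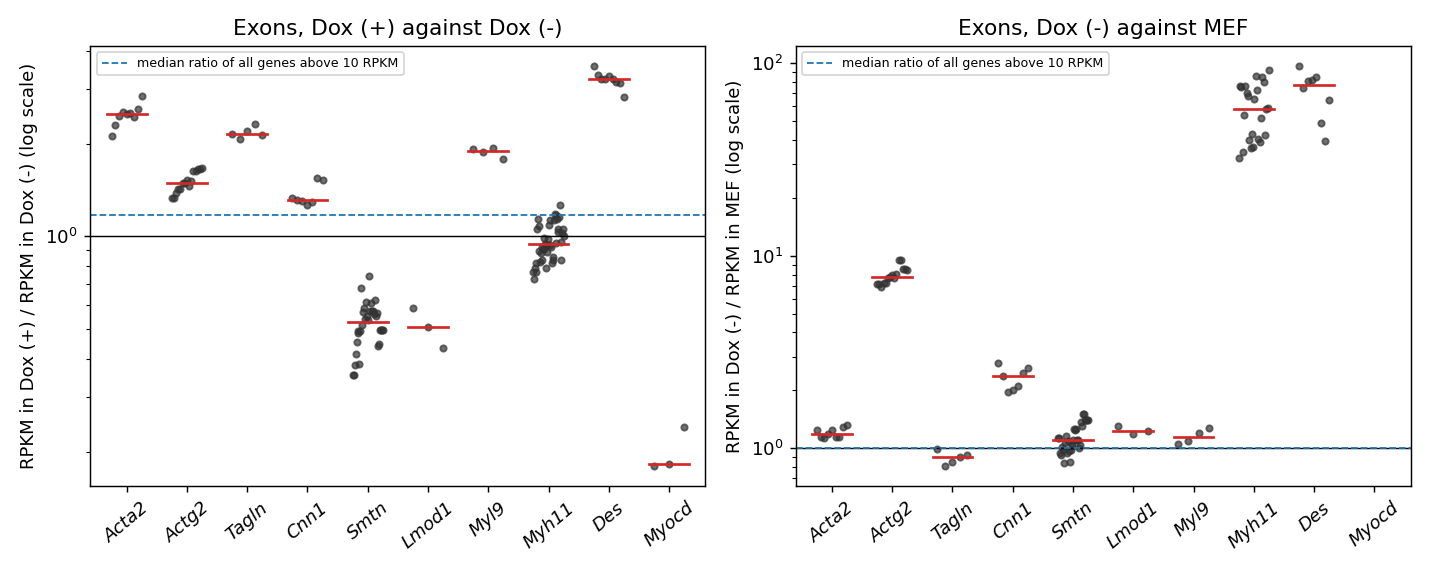
Ratio of RPKM for every exon with more than 3 reads in both libraries, Dox (+) against Dox (-) on the left and Dox (-) against MEF on the right, on log axes. Each dot is an exon, red bars are the median over a gene's exons, the solid line is a ratio of 1 and the dashed line the median ratio of all genes. The exons of 1 gene agree in direction except for Myh11 on the left and Smtn on the right.

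Between MEF and Dox (-), where no Dox was given, 3 of the contractile genes differed by far more than they did between the knock-in libraries. Of the 9 genes compared, Myh11, Des and Actg2 exceeded 4-fold in the direction of Dox (-), 3 in all, against 8.26% of all 13234 genes, and none was lower, against 1.21%. At a threshold of 2 the same 3 were called, against 17.3% of all genes, and none was lower, against 7.93%. Cnn1 was just short on the highest exon of each library, which was not the same exon. It was 2.12-fold higher on the same exon and 2.29-fold over merged exons, which passes 2-fold. The median log2 fold change of the 10 genes was 0.66 and that of all genes was 0.01. These libraries also differed in genotype and passage, in macrophage RNA, and in Mitf, which was higher in Dox (-) than in MEF even without Dox. These differences cannot be told apart from one another here.

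Against MEF, Dox (+) was higher for 7 genes and lower for Lmod1, Smtn and, on its highest exon, Myocd, which was higher over merged exons, from 6 and 13 reads, a difference within counting error. Of all 12941 genes compared, 63.3% were higher in Dox (+), near the share of the 10 genes. The same 3 genes, Myh11, Des and Actg2, passed 4-fold, against 6.55% of all 12941 genes higher and 3.4% lower. At a threshold of 2, Acta2, Cnn1 and Myl9 were added, for 6 of 9 against 20.2% of all genes, and none was lower, against 8.98%. Smtn was nonetheless 2.62-fold below MEF on the same exon, and 1.83-fold over merged exons. Des was 155-fold higher than in MEF, from 23 reads there, and Acta2 3.10-fold (interval 3.07 to 3.14), Myl9 2.04-fold (1.998 to 2.09) and Tagln 1.67-fold (1.65 to 1.69). The median log2 fold change was 1.20, and 0.27 over all genes. Relative to that shift the log2 fold change was 1.36 for Acta2, 0.76 for Myl9 and 0.47 for Tagln. This comparison shares the MEF library with the preceding one and the Dox (+) library with the first.

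Other genes of the contractile apparatus were split in direction. From a list of 40 such genes, 35 were above 10 RPKM in Dox (-) or Dox (+), with a median log2 fold change of -0.13. More than 2-fold higher in Dox (+) was 1 of the 35, the small heat shock protein Hspb1 with 173 RPKM in Dox (-) and 354 RPKM in Dox (+). More than 2-fold lower were 7, led by Casq2, a calcium-binding protein of the sarcoplasmic reticulum, with 12.3 RPKM on an exon of 9 bases (5 reads) and 0.909 RPKM on one of 75 bases, and Prkg1, the kinase through which cyclic GMP relaxes smooth muscle, with 98.3 and 31.3 RPKM. Mylk, the kinase that phosphorylates Myl9, was among them, with 6.06 RPKM in MEF, 122 RPKM in Dox (-) and 54.5 RPKM in Dox (+), so the kinase and its substrate had opposite directions. Myh9, the non-muscle myosin heavy chain, was next highest after Hspb1, with 2734 and 4632 RPKM. Tropomyosins were split, with Tpm2 at 2418 and 3658 RPKM but Tpm1 at 8741 and 7989 RPKM.

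Srf and the myocardin-related factors were present in all 3 libraries. Srf had 73.9 RPKM in MEF, 109 RPKM in Dox (-) and 125 RPKM in Dox (+). Mrtfa had 56.8, 98.4 and 125 RPKM and Mrtfb 13.1, 37.2 and 44.2 RPKM in the same order, all far above Myocd. Of 25 listed regulators and inputs, 23 were compared, 3 were more than 2-fold higher in Dox (+) and 2 lower, with a median log2 fold change of 0.20. The higher ones were Tead4, a YAP-binding factor, with 5.47 and 28.7 RPKM, Elk1, an Srf partner that competes with myocardin, with 39.4 and 88.0 RPKM but 19.96 and 27.4 RPKM over merged exons, where it did not pass 2-fold, and Tgfb1, the main inducer of myofibroblasts, with 283 and 592 RPKM. The lower ones were Tead3, with 241 and 79.5 RPKM on exons of 12 and 50 bases but 35.6 and 23.5 RPKM over merged exons, and Tgfb2, with 59.7 and 16.7 RPKM.

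Rapid targets of Srf or YAP did not share a direction. Of 8 such genes, Egr1 was higher, at 77.5 RPKM in Dox (-) and 165 RPKM in Dox (+), Fos was lower, at 61.5 and 22.7 RPKM, and Thbs1, a matrix glycoprotein, was at 11149 and 6017 RPKM. Ccn2, a widely used YAP target, was level at 1901 and 1904 RPKM on an exon of 24 bases, but at 935 and 619.6 RPKM over merged exons. The median of the 8 was -0.40 on the log2 scale.

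The matrix genes of myofibroblasts were lower in Dox (+), where Acta2 was higher. Of 12 genes compared, 11 were more than 2-fold lower in Dox (+) than in Dox (-) and 5 more than 4-fold, with a median log2 fold change of -1.41. Col3a1, a fibrillar collagen, had 3320 RPKM in MEF, 10487 RPKM in Dox (-) and 847 RPKM in Dox (+). Ltbp2, which binds microfibrils, had 239, 1905 and 279 RPKM. Col1a1 had 4958, 12562 and 2301 RPKM and Postn, periostin, 1524, 7703 and 1400.4 RPKM. Acta2 and the collagens, which are often read together as signs of a myofibroblast, had opposite directions here. The Dox-inducible Mitf allele lies downstream of Col1a1, and its part in the Col1a1 values was not tested.

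**Figure D4:**
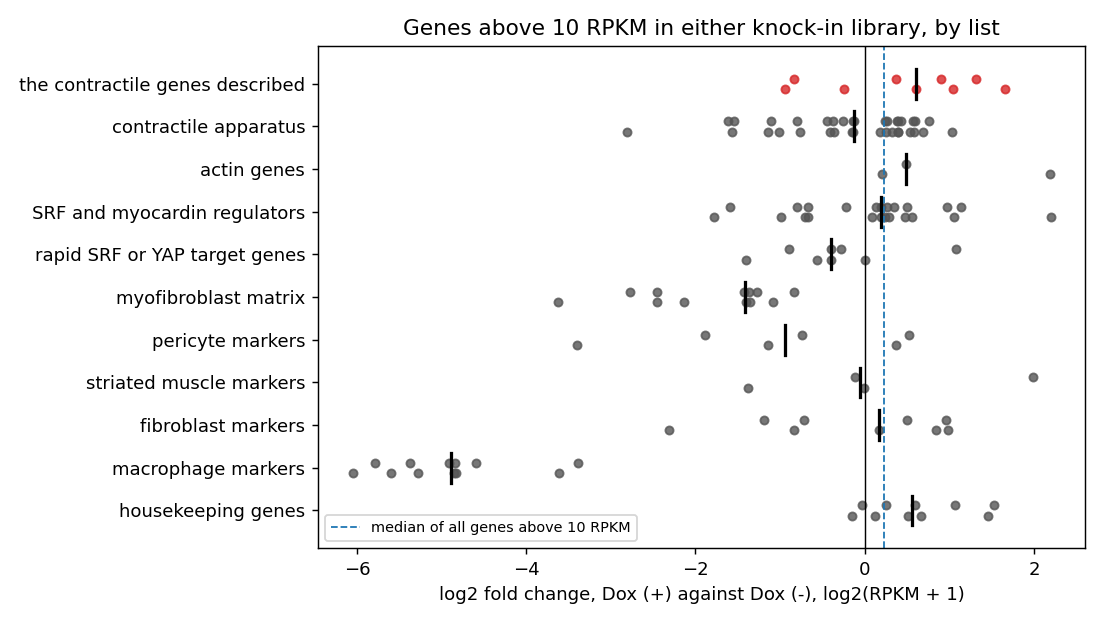
Log2 fold change of each gene above 10 RPKM in either knock-in library, Dox (+) against Dox (-), by gene list. Each dot is a gene, black bars are list medians and the dashed line is the median of all genes; the 9 contractile genes span both sides, while 11 of 12 matrix genes and all 12 macrophage markers are more than 2-fold lower.

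Markers of other contractile or mural cells were also read. Of the 10 pericyte markers, 6 were compared and 3 were more than 2-fold lower in Dox (+): Rgs5 with 21.1 RPKM in Dox (-) and 1.09 RPKM in Dox (+), Mcam with 251 and 67.4 RPKM, and Notch3 with 49.4 and 21.9 RPKM. Cspg4 and Anpep were at 90.4 and 140 RPKM in Dox (-) and at 131 and 181 RPKM in Dox (+). Of the striated muscle markers, 16 of 17 were found and 4 compared. Tnnt2, the cardiac troponin T gene, had 5.96 RPKM in MEF, 66.7 RPKM in Dox (-) and 268 RPKM in Dox (+), and Tnnt1 had 18.5, 70.4 and 26.5 RPKM. Both values rest on short exons, and over merged exons Tnnt2 was at 16.2 and 48.7 RPKM and Tnnt1 at 2.31 and 1.25 RPKM in Dox (-) and Dox (+). Tnnc1 was at 11.2 and 10.3 RPKM. The defining genes of skeletal muscle were at or near 0, with Myod1 and Ckm at 0 in both knock-in libraries and Myog at no more than 0.102 RPKM. The summed striated list was 67.1 RPKM in MEF, 208 RPKM in Dox (-) and 355 RPKM in Dox (+).

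Markers of other cell types also differed. All 12 macrophage markers were more than 4-fold lower in Dox (+) than in Dox (-), with a median log2 fold change of -4.88, led by the complement genes C1qa, at 455 and 5.88 RPKM, and C1qb, at 350.0 and 5.34 RPKM. Their part in the differences of the contractile genes between these libraries was not tested. Fibroblast markers were mixed, with Vim at 12302 and 24345 RPKM and Twist2 at 56.8 and 111 RPKM, but Lum at 226 and 44.8 RPKM and Dcn at 1637 and 719.5 RPKM. Endothelial markers summed to 42.0 RPKM in Dox (-) and 7.33 RPKM in Dox (+), led by Erg at 27.2 and 2.39 RPKM and Kdr at 10.7 and 3.54 RPKM. The epithelial keratin Krt14 was at 32.8 RPKM in MEF, 2.12 RPKM in Dox (-) and 26.9 RPKM in Dox (+). Of 7 melanocyte markers, 4 were compared and all 4 were higher in Dox (+), with Mlana at 0.390 and 133 RPKM and Tyrp1 at 0.520 and 110 RPKM.

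Some genes that every cell uses were also higher in Dox (+). Of 10 such genes, 3 passed 2-fold in that direction. Gapdh, a glycolytic enzyme, was at 2192 RPKM in Dox (-) and 6004 RPKM in Dox (+), and Pgk1, another, at 694 and 1461 RPKM. Rplp0, a ribosomal protein, passed on an exon of 3 bases and was at 736 and 1453 RPKM over merged exons. The median of the 10 was 0.55, close to the 0.48 of the contractile genes, while Tbp, at 196 and 193 RPKM, and Hprt, at 1048 and 946 RPKM, were nearly level on exons of 17 and 18 bases and at 7.37 and 9.43 RPKM and 212 and 274 RPKM over merged exons. Gapdh was lower in Dox (-) than in MEF, where it had 3439 RPKM, and Acta2 was not.

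The genes whose profile over the 3 libraries lay nearest to that of Acta2, by the smallest largest difference in centred log2(RPKM + 1) among 13586 genes, were none of the contractile genes. They were Cdc34b, a ubiquitin-conjugating enzyme (difference 0.02), Psmf1 (0.03), Tmem8b (0.03), the claudin Cldn12 (0.03) and Naglu (0.04). Psmf1, an inhibitor of the proteasome, had 87.7 RPKM in MEF, 114 RPKM in Dox (-) and 280.3 RPKM in Dox (+), and Naglu, a lysosomal enzyme, had 65.1, 81.7 and 197 RPKM. Of the members, Myl9 was nearest at a difference of 0.34 and rank 524, then Tagln at 0.51 and rank 1533, then Cnn1 at 0.54 and rank 1918. With 3 libraries many genes share any profile, and nothing was tested.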

How the data were processed

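Poly(A) RNA libraries were made with the TruSeq RNA kit v2 and aligned to mm10 with TopHat2 2.0.10, and reads per Ensembl exon were counted with bedtools coverage, per the labels and the study's methods. The authors divided the counts by exon length and by the aligned reads of the library, and the deposited values are RPKM per exon. How the listed exons were chosen, strand use and read length are not given in the sources used here. Of 234718 exons, 228132 were matched by identifier to GENCODE M21, and 226463 of coding genes, pseudogenes and lincRNAs were kept. PMel was not analysed here, and 1 column of values was left unused because its name matched no sample. The columns were checked against the part of the study's gene table at hand, and for MEF most values differed.

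The level of a gene was its highest exon. Folds were taken on the same exon, the highest in either library, with exact conditional binomial intervals, and levels carry exact Poisson intervals (95%). Reads were recovered from the RPKM, with 96.9 to 97.2% of values below 200 reads whole within 0.02 reads. Intervals cover counting error only. A read is counted on each exon it touches, and reads spliced across an exon may be counted on it as well. Merged counts can thus hold a read more than once, so intervals of merged counts are narrower than the true counting error. Short exons had the higher RPKM: over the 9 exons of Acta2 the Spearman correlation of length and RPKM was -0.88 in each library, a description only. Merged-exon reads used the longest exon of each overlapping cluster. A gene was called where the plain ratio of its RPKM passed 4-fold with either library above 10 RPKM. Calls and log2 fold changes used the highest exon of each library, which was not always the same exon. Log2 fold changes used log2(RPKM + 1), which understates those of low genes.

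The members and lists were chosen with earlier results of these data known. Each list was represented by the 2 highest and the 2 lowest log2 fold changes of its genes, Dox (+) against Dox (-), above 10 RPKM. Tpm1, Tpm2, Mylk, Srf, Mrtfa, Mrtfb, Tgfb1, Col1a1, Postn, Actc1, Actg1, Pgk1, Notch3, Myod1, Ckm, Myog and Pdgfra were named beyond that rule, after their values were seen. Genes with placeholder symbols were passed over among the nearest to Acta2, which the rule did not state. Alternatives were a threshold of 1 RPKM or none, a fold of 2, pseudocounts of 0.1 and 5, other measures of level and rescaling by the median ratio. SciPy 1.17.1, NumPy 2.4.6 and pandas 2.3.3 ran under Python 3.11.15, and the code was tested on simulated data.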

Additional observations from a re-analysis of the deposited data

How the results depend on the processing

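No group had more than 1 library, so no replicate could be left out, and no paired analysis was possible because each condition was 1 library. The comparison of PMel with MEF was not run. For Dox (+) against Dox (-), the number of contractile genes called higher went from 0 to 3 at a fold of 2. The number called lower went from 0 to 1, Myocd, with a threshold of 1 RPKM or no threshold, which let in this gene of few reads, and under both the number called higher for Dox (-) against MEF went from 3 to 4, again with Myocd. The median log2 fold change went from 0.48 to 0.253 when the libraries were rescaled by the median ratio. For Dox (+) against MEF, 6 rather than 3 were called higher at a fold of 2, and the median went from 1.20 to 0.922 on rescaling. For Dox (-) against MEF, the median of 0.66 became 0.455 with a pseudocount of 5, 0.437 with merged reads and 0.421 with exons of at least 100 bases, the last chosen after seeing the data. The log2 fold change of a single gene changed sign in 2 of 70 values for Dox (-) against MEF, both for Smtn, at 0.05 with merged reads and 0.19 with the median exon. It did so in 1 of 70 for Dox (+) against MEF, for Myocd at 0.05 with merged reads, and in 0 of 70 for Dox (+) against Dox (-). The cause of these differences was not tested. Depth limits Myocd in every library, and Myh11 and Des in MEF.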
